A study of Mus musculus with 7 samples.

Results

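The course of the endotoxin response was followed in wild-type mouse spleen by setting libraries made 6 h after lipopolysaccharide (LPS) against libraries made 90 min after it. These are 4 of the 7 libraries of the series, 2 at each time, called early (90 min) and late (6 h) below, and they were picked by their sample titles. All mice were 8 weeks old, of the strain C57BL/6, and had received 20 mg/kg LPS intraperitoneally. The other 3 libraries came from mice labelled as lacking GdX, also called UBL4A (genotype GdX-/-, written GdX-/Y in the title since the gene lies on the X chromosome), under the same treatment, 2 at 90 min and 1 at 6 h. Ubl4a was still detected in these libraries (values with the last comparison). They entered the fit that estimates the spread between libraries, and the last comparison below. How the GdX allele was made is not given in the sources used here. By the design text each library is 1 mouse, so the mice of the 2 times are different animals. The whole organ was crushed on ice and RNA taken from all of its cells, although the source is labelled splenocytes. No unstimulated spleen was analysed here. A gene that is higher or lower at 6 h is therefore higher or lower than at 90 min, a time at which the first wave of transcripts is already up, and not in relation to the resting organ.

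Levels were deposited as FPKM, a fragment count corrected for transcript length and library depth. Depth was close to even, from an estimated 19400000 to 20400000 fragments in the wild-type libraries. The replicates at 90 min differed by an SD of 0.37 over genes (log2) and those at 6 h by 0.57, and 140 and 997 of the 11378 tested genes were at least 2-fold apart between them. In both pairs the difference followed transcript length (Spearman's rho across genes -0.45 at 90 min and -0.59 at 6 h, 11180 genes), while the change with time did so only weakly (rho -0.08). Genes are not independent replicates, so these are descriptions. Globin genes took 22.3% and 19.2% of all FPKM at 90 min and 9.46% and 7.73% at 6 h. Markers of the main spleen cells were present. Cd79a of B cells stood at 724 and 667 FPKM in the early libraries and 99.4 and 70.7 FPKM in the late ones, Cd3e of T cells at 33.5 and 38.2 FPKM in the early libraries and 15.2 and 17.6 FPKM in the late ones and Vcam1, high in red pulp macrophages, at 173 and 182 FPKM in the early libraries and 24.5 and 33.3 FPKM in the late ones. Of 12 pancreas markers listed in the table, 11 had a mean under 1 FPKM.

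LPS, a component of the outer membrane of Gram-negative bacteria, binds CD14 and TLR4 with MD-2 on macrophages, dendritic cells, B cells and endothelium. The receptor signals through MyD88 to NF-kB and MAP kinases, which switch on cytokine and chemokine genes within minutes, and through TRIF to IRF3 and interferon beta, which acts back on the cells through its own receptor. Many of the early transcripts carry AU-rich elements, are short-lived, and LPS also induces inhibitors of its own pathway. Later phases bring in acute phase proteins, interferon-gamma, metabolic adaptation and the loss or redistribution of leukocytes. One stress pathway that cells use when amino acids run short, or when other kinases phosphorylate the initiation factor eIF2, works through the transcription factor ATF4, which turns on genes for amino acid synthesis, uptake and charging onto tRNA.

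Between 90 min and 6 h, 1218 of the 11378 tested genes changed (10.7%; limma, Benjamini-Hochberg adjusted p under 0.05). Of these, 499 rose (4.39% of the genes tested) and 719 fell (6.32%), 1135 of them by at least 2-fold, and for all 1218 the libraries of the 2 times did not overlap. An unadjusted p under 0.05 was reached by 3262 genes (28.7%). The median log2 change of all tested genes was 0.05, and 53.1% of the changes were above 0. Values are log2(FPKM + 1) at 6 h minus 90 min, a scale that understates the change of low genes. Among the 10 genes with the smallest p that rose, 9 belong to the ATF4 program, and the tenth was Zbtb32, a transcriptional repressor of activated lymphocytes (2.3 and 2.88 to 37.4 and 38.6 FPKM). The 10 that fell were H2-Oa and H2-Ob of the MHC class II loading machinery, Cd79a, the signalling chain of the B cell receptor, Cd209a of dendritic cells, Rhd of red cells, the lymphocyte integrin chain Itgb7, the detoxifying hydrolase Ephx1, the cholesterol carrier Star, and Dapl1 and Kazald1. Star went from 60.1 and 53 to 1.67 and 2.69 FPKM, a log2 change of -4.19. When FPKM was rescaled without the globin genes, limma called 708 genes, of which 191 rose and 517 fell, a share of rises of 27.0% against 41.0% without rescaling. Single libraries moved the count as well. It was 450 (128 up, 322 down) without wild-type replicate 1 at 90 min, 550 (209 up, 341 down) without replicate 2 at 90 min, 1517 without replicate 1 at 6 h, with 783 up and 734 down, and 1774 without replicate 2 at 6 h, with 1102 down. None of the 1218 genes changed direction in any of these fits. Without 1 library none could, since their libraries did not overlap between the times. The filter mattered too. Without it, so with every listed gene in the test, 635 genes were called. Of 163 genes called and named by rule, 80 were called without the filter, 124 after rescaling without globin genes, 133 in the fit of only the 4 wild-type libraries, and 97 and 107 without wild-type replicate 1 and 2 at 90 min. In several lists described below the called share lay near the 10.7% of all tested genes, so that their counts do not set them apart: anti-inflammatory cytokines and decoy receptors (12.5%), homeostatic lymphoid chemokines and receptors (14.3%), NF-kB subunits and negative feedback (8.7%), MAP kinase phosphatases and mRNA decay factors (13.3%), JAK-STAT factors and SOCS feedback (11.8%), antiviral interferon-stimulated genes (13.9%), interferon-inducible GTPases (6.25%), ER chaperones and unfolded protein response (4%), cell cycle and DNA replication (15%), HIF targets outside glycolysis (8.33%), plasma cells (14.3%), marginal zone macrophages (16.7%) and megakaryocytes and platelets (10%).

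**Figure D1:**
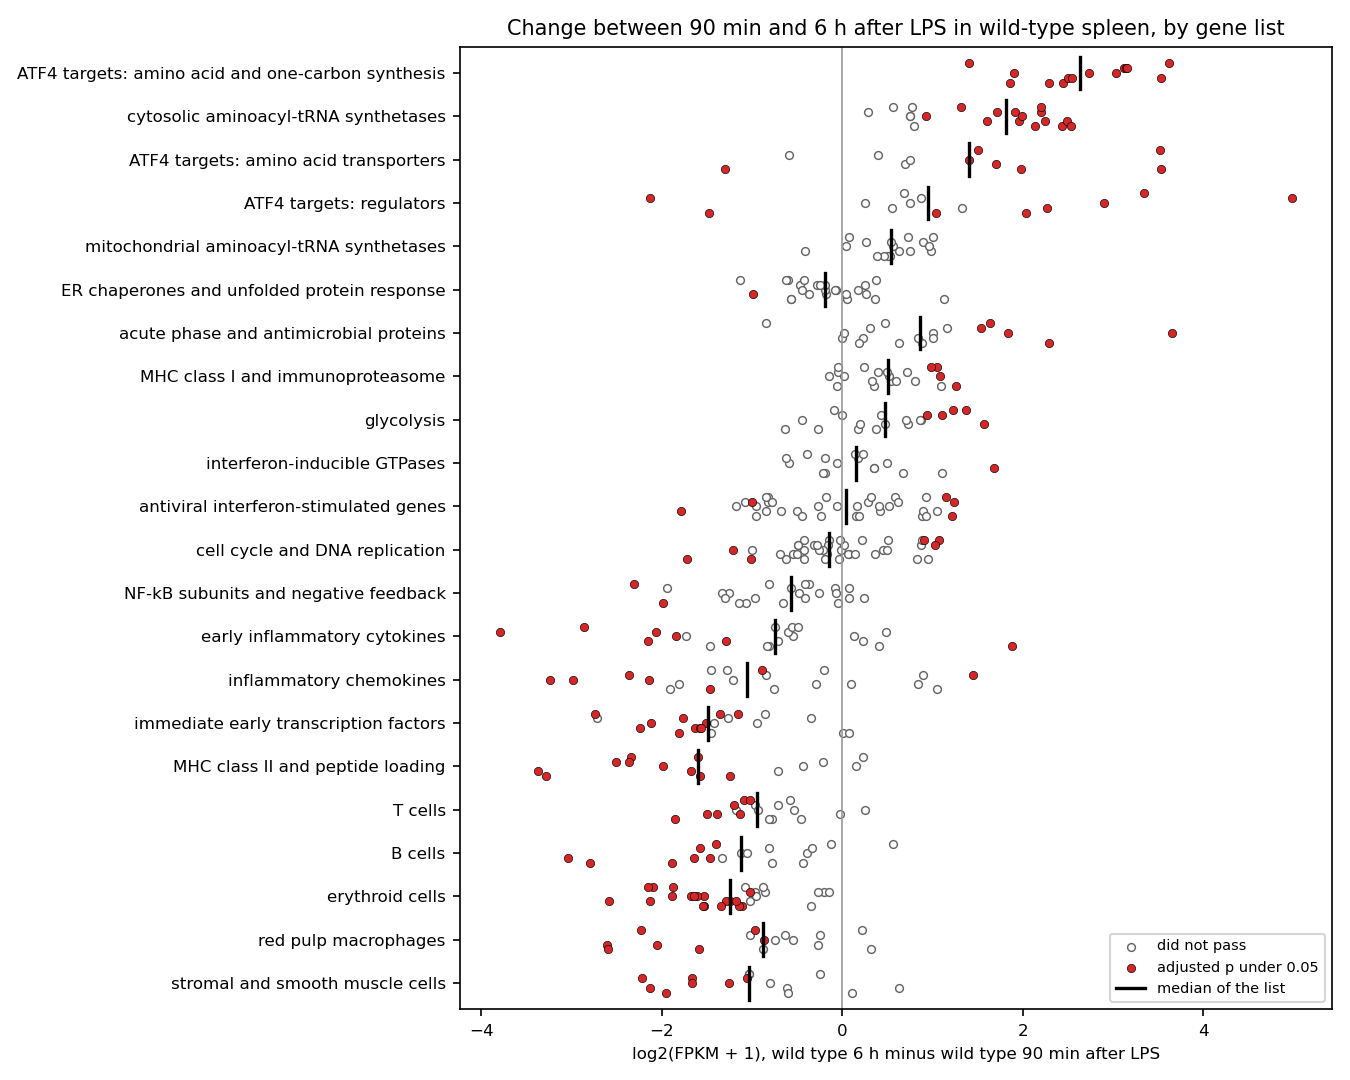
Change of every tested member of 22 of the gene lists. Each point is 1 gene, the x axis gives log2(FPKM + 1) at 6 h minus 90 min in wild-type spleen, filled points passed the limma test, and the black bar is the median of the list. All 14 tested amino acid synthesis genes lie to the right of 0 and are filled, while all 29 erythroid markers lie to the left of it.

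The tested genes that make amino acids rose, as did most of those that import them or charge them onto cytosolic tRNA. Of 39 tested members of 3 lists of ATF4 targets, 26 rose and 3 fell. Of 16 listed synthesis enzymes 14 were tested and rose, with a median log2 change of 2.64. Aldh1l2 (0.09 and 0.12 FPKM in the early libraries and 0.42 and 0.50 FPKM in the late ones) and Cbs (0.00 and 0.02 FPKM in the early libraries and 0.10 and 0.28 FPKM in the late ones) had a mean under 1 FPKM and were not tested. Among the tested members Cth, Bcat1 and the transporter Slc7a3 were under 1 FPKM in all libraries but the late wild-type ones. Chac1 and the transporter Slc1a4 had a mean under 1 FPKM over those other libraries. All of these could enter the test only through the late wild-type libraries. Their counts among the rises are a description. Trib3, a pseudokinase that dampens ATF4 itself, had the smallest p of all tested genes, and stood at 0.63 and 0.70 FPKM in the early libraries and 51.1 and 52.8 FPKM in the late ones (log2 change 4.99, SE 0.27, limma adjusted p = 0.000147). Chac1, which breaks down glutathione, went from 0.54 and 0.56 to 10.6 and 20.3 FPKM (log2 change 3.34, SE 0.32, limma adjusted p = 0.00105). Both were close to the detection limit in the 2 early libraries and clearly present in the 2 late ones.

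A C/EBP-ATF response element (CARE), the composite site that ATF4 and C/EBP proteins bind together, can be read in some of these promoters. The 5 below show it in a regulator with the largest rise of all tested genes, a second regulator, an enzyme, a transporter and a tRNA synthetase. They are RefSeq promoters of GRCm38.p6, windows of 300 bases around the start of the gene, written 5′ to 3′ on the strand of the gene, with every match to TGATGNAA or its reverse complement TTNCATCA in capitals. Their places are chr2:152344011-152344310 (minus strand) for Trib3, chr2:119350992-119351291 (plus strand) for Chac1, chr6:7693160-7693459 (minus strand) for Asns, chr11:20332664-20332963 (minus strand) for Slc1a4 and chr6:55037751-55038050 (plus strand) for Gars. The first base of the match lies at 14 after the start in Trib3 and at -193, -23, -4 and -30 in the other 4, in that order.

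These 5 promoters are shown because they hold a match, and other genes with one are named below.
Trib3: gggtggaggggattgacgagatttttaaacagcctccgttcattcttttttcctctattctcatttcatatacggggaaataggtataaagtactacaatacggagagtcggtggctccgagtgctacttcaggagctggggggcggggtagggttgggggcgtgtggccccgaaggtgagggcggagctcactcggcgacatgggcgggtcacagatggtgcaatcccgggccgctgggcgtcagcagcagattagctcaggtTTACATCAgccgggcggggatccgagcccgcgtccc
Chac1: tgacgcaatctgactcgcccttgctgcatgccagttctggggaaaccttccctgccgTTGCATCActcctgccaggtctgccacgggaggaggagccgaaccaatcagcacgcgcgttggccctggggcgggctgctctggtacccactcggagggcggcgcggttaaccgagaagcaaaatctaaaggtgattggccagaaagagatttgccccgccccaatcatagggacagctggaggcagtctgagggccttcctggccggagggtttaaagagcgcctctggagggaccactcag
Asns: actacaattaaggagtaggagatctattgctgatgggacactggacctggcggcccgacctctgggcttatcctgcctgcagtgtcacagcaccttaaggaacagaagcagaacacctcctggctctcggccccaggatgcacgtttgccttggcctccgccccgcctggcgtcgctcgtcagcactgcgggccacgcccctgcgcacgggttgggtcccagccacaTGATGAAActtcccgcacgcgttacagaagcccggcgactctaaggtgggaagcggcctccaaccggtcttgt
Slc1a4: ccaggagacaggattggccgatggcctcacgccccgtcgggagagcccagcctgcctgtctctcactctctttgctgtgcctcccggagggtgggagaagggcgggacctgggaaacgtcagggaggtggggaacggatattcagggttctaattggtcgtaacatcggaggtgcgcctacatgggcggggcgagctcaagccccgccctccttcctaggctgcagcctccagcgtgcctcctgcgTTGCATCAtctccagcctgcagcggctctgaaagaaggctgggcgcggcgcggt
Gars: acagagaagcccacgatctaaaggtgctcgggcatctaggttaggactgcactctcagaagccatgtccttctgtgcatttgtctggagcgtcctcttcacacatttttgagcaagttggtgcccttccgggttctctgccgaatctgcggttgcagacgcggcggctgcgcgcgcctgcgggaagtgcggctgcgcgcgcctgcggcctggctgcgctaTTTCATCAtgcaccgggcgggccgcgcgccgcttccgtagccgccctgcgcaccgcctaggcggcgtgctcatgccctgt

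Matches were counted over both strands of the 300 bases. Among all 32851 RefSeq promoters the share with at least 1 is 3.97%, and among their 27025 genes it is 4.51%. Of the members that changed with time, 2 of 7 regulators with a promoter in the table (Trib3 and Chac1), 3 of 13 synthesis enzymes (Asns, Pycr1 and Got1), 1 of 5 transporters (Slc1a4) and 5 of 10 cytosolic tRNA synthetases (Aars, Gars, Iars, Tars and Yars) hold a match. Of the members that did not pass the test, Nupr1 holds one among 6 regulators, Slc7a11 among 2 transporters, and none among 3 cytosolic and 14 mitochondrial synthetases. Eif4ebp1, Cth, Slc7a3, Slc7a5, Slc38a1 and Slc1a5 have no entry, nor have 7 cytosolic and 3 mitochondrial synthetases. A match is a string of letters and does not show that a factor was bound in these spleens.

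Of 14 regulators and other targets of the pathway 6 rose and 2 fell (median 0.96). Atf4 itself rose from 291 and 254 to 635 and 494 FPKM (log2 change 1.04, SE 0.27, limma adjusted p = 0.0379). Ddit3, which encodes the stress factor CHOP, stood at 14.7 and 14.4 FPKM in the early libraries and 68.9 and 57.5 FPKM in the late ones (log2 change 2.04, SE 0.29, limma adjusted p = 0.00481). Eif4ebp1, a brake on cap-dependent translation, stood at 17.3 and 19.6 FPKM in the early libraries and 138 and 151 FPKM in the late ones (log2 change 2.9, SE 0.25, limma adjusted p = 0.000582). In all of them both late libraries were above both early ones. Sesn2, which senses leucine for mTORC1, also rose (2.27), but its late libraries were far apart at 3.57 and 17.7 FPKM. Against this trend Gdf15, a stress-induced hormone, fell from 34.3 and 29 to 9.76 and 4.14 FPKM (log2 change -2.13, SE 0.52, limma adjusted p = 0.0322). Ppp1r15a, the GADD34 subunit that removes the phosphate from eIF2, fell from 160.1 and 172 to 61.4 and 56.2 FPKM (log2 change -1.48, SE 0.37, limma adjusted p = 0.0342). Atf4 was called in 8 of 16 alternatives (highest limma adjusted p = 0.235) and Sesn2 in 10 of 16 alternatives (0.141). Leaving out 1 library ended single calls, with the limma adjusted p then in parentheses: without wild-type replicate 1 at 90 min (Sesn2 0.0506, Atf4 0.139), without wild-type replicate 2 at 90 min (Ppp1r15a 0.057, Atf4 0.235), without wild-type replicate 1 at 6 h (Atf4 0.0726), without GdX-deficient replicate 1 at 90 min (Atf4 0.0573, Sesn2 0.0781) and without GdX-deficient replicate 2 at 90 min (Atf4 0.0579, Sesn2 0.0774). Changes of the other settings ended calls without a filter on low values (Atf4, Gdf15, Ppp1r15a, Sesn2), after rescaling without globin genes (Atf4, Sesn2), in the fit of only the 4 wild-type libraries (Atf4, Sesn2) and with quantile normalization (Gdf15).

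The serine and glycine branch rose throughout. Phgdh, the first enzyme of serine synthesis from a glycolytic intermediate, stood at 52.2 and 44.7 FPKM in the early libraries and 472 and 403 FPKM in the late ones (log2 change 3.15, SE 0.25, limma adjusted p = 0.000518). Psat1, the next enzyme, stood at 12.1 and 14.8 FPKM in the early libraries and 147 and 211 FPKM in the late ones (log2 change 3.62, SE 0.28, limma adjusted p = 0.000518). Shmt2, which passes the serine carbon to mitochondrial folate, stood at 39.3 and 53.5 FPKM in the early libraries and 393 and 439.6 FPKM in the late ones (log2 change 3.15, SE 0.28, limma adjusted p = 0.000707). With them rose Psph (1.86), the last step to serine, and the mitochondrial folate enzymes Mthfd2 (2.73) and Mthfd1l (2.55). For the 3 enzymes given in full, the early and late libraries formed groups with a wide gap between them.

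Other branches moved with it. Asns, asparagine synthetase, stood at 6.92 and 6.92 FPKM in the early libraries and 39.2 and 49.1 FPKM in the late ones (log2 change 2.5, SE 0.27, limma adjusted p = 0.00178). Pycr1, which completes proline synthesis, stood at 1.5 and 1.34 FPKM in the early libraries and 24.1 and 30.3 FPKM in the late ones (log2 change 3.53, SE 0.28, limma adjusted p = 0.000518). Cth, which makes cysteine by transsulfuration, stood at 0.36 and 0.27 FPKM in the early libraries and 9.74 and 11.2 FPKM in the late ones (log2 change 3.12, SE 0.23, limma adjusted p = 0.000518), and Bcat1, which transaminates branched-chain amino acids, at 0.29 and 0.33 FPKM in the early libraries and 10.2 and 9.34 FPKM in the late ones (log2 change 3.04, SE 0.23, limma adjusted p = 0.000518). Cth and Bcat1 were barely detected in either early library, and both entered the test only through the late ones. Aldh18a1 (2.45) upstream of Pycr1, Gpt2 (2.29), Shmt1 (1.9) and Got1 (1.41) rose too. The list lost 1 call without wild-type replicate 1 at 90 min (13 of 14) and none without any other library.

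Of 11 amino acid transporters, 6 rose and 1 fell (median 1.4). Slc7a3, a cationic amino acid carrier, stood at 0.27 and 0.20 FPKM in the early libraries and 12.8 and 13.7 FPKM in the late ones (log2 change 3.53, SE 0.24, limma adjusted p = 0.000465). Slc1a4, a carrier of alanine, serine and cysteine, stood at 0.31 and 0.46 FPKM in the early libraries and 11.9 and 18.8 FPKM in the late ones (log2 change 3.53, SE 0.29, limma adjusted p = 0.000518). In both, expression was close to 0 in the early and present in the late libraries. Both entered the test only through the late wild-type libraries. Slc7a5, the light chain of the large neutral amino acid exchanger LAT1, rose from 21.6 and 45.3 to 93.7 and 173 FPKM (log2 change 1.99, SE 0.51, limma adjusted p = 0.0389), and so did its partner Slc3a2 (1.5), the glycine carrier Slc6a9 (1.71) and the arginine carrier Slc7a1 (1.4). Slc43a1, another neutral carrier, fell (-1.3). Slc7a11, the cystine carrier that NRF2 shares with ATF4, was at -0.59 and did not pass. Only 3 transporters rose without wild-type replicate 1 at 90 min. Some of these calls lapsed when 1 library was left out (limma adjusted p in parentheses), namely without wild-type replicate 1 at 90 min (Slc6a9 0.0773, Slc7a5 0.0858, Slc43a1 0.0925), without wild-type replicate 2 at 90 min (Slc43a1 0.231), without wild-type replicate 1 at 6 h (Slc43a1 0.0772), without GdX-deficient replicate 1 at 90 min (Slc43a1 0.0547) and without GdX-deficient replicate 2 at 90 min (Slc43a1 0.0548). Changing one setting at a time, calls were lost without a filter on low values (Slc43a1, Slc7a5), after rescaling without globin genes (Slc43a1, Slc7a5), in the fit of only the 4 wild-type libraries (Slc43a1) and with quantile normalization (Slc7a5).

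Aminoacyl-tRNA synthetases, which load each amino acid onto its tRNA, come as a cytosolic and a mitochondrial set encoded by different genes with few exceptions. Of 20 cytosolic genes 14 rose and none fell (median 1.82). Lars, for leucine, stood at 15.5 and 15.5 FPKM in the early libraries and 83.6 and 107 FPKM in the late ones (log2 change 2.54, SE 0.27, limma adjusted p = 0.00143). Gars, for glycine, stood at 30.1 and 36.2 FPKM in the early libraries and 167 and 216 FPKM in the late ones (log2 change 2.49, SE 0.25, limma adjusted p = 0.00131). Aars, for alanine, and Cars, for cysteine, had log2 changes of 2.43 and 2.25. The 6 that did not pass were Qars (0.28), Rars (0.56), Vars (0.75), Hars (0.75) and both phenylalanine subunits, Farsa (0.77) and Farsb (0.80). In the mitochondrial set 0 of 17 genes passed, with a median of 0.54 and the largest value at Vars2 (1.0). At an unadjusted p under 0.05 there were 6. Rars2 stood at 14.1 and 11.3 FPKM in the early libraries and 29.3 and 23.1 FPKM in the late ones (log2 change 0.99, SE 0.28, limma adjusted p = 0.0523). The mitochondrial count rose to 6 when the trend with transcript length was removed, to 4 with quantile normalization or a replicate block, and to 1 with a mean of at least 5 FPKM and without either wild-type library at 6 h. Whether the sets differ in their change was not tested.

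**Figure D2:**
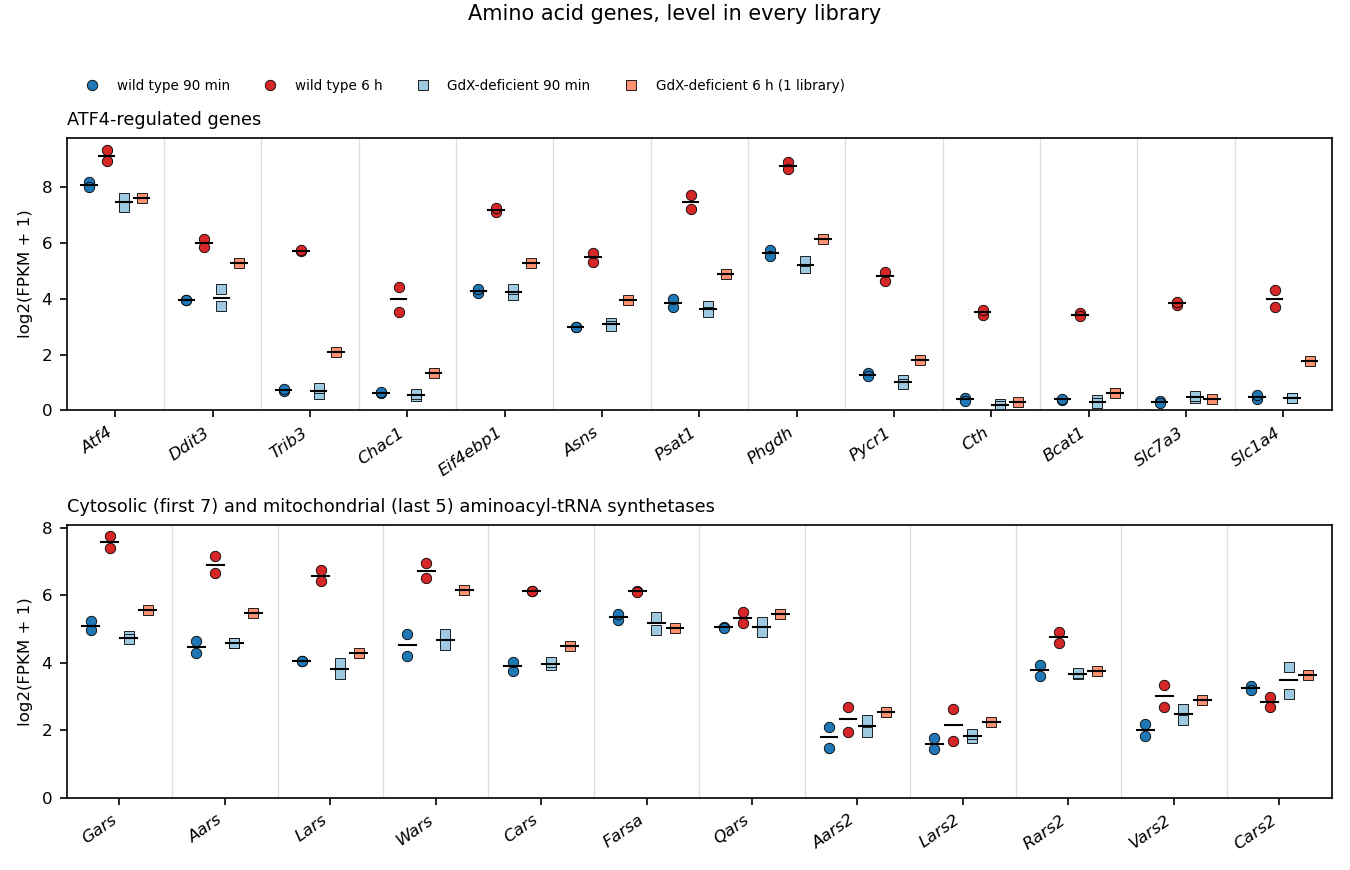
Level of 13 ATF4-regulated genes and 12 aminoacyl-tRNA synthetases as log2(FPKM + 1) on the y axis. Each point is 1 library, circles are wild type and squares GdX-deficient, and the short bars are group means. Trib3 goes from 0.63 and 0.70 FPKM to 51.1 and 52.8 FPKM in wild type, while the late GdX-deficient library stands at 3.27 FPKM.

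The unfolded protein response, which shares the eIF2 kinase step with the amino acid response, gave few calls. Of 25 endoplasmic reticulum chaperones and regulators none rose and 1 fell (median -0.19). Hspa5, the chaperone BiP, stood at 473 and 477 FPKM in the early libraries and 293 and 352 FPKM in the late ones (log2 change -0.56, SE 0.28, limma adjusted p = 0.212). Calr, calreticulin, was the gene that fell, from 294 and 338 to 144 and 173 FPKM (log2 change -0.99, SE 0.25, limma adjusted p = 0.0376). Other chaperones were split. The mitochondrial chaperonin Hspd1 rose from 112 and 115 to 379 and 333 FPKM (log2 change 1.64, SE 0.24, limma adjusted p = 0.0053), together with Hsp90ab1 (1.18) and Hspa4 (1.03). The strictly stress-induced Hspa1b fell from 11.6 and 7.24 to 0.75 and 0.79 FPKM (log2 change -2.52, SE 0.48, limma adjusted p = 0.0139) and the small heat shock protein Hspb1 from 90.6 and 47.1 to 9.79 and 13 FPKM (log2 change -2.44, SE 0.39, limma adjusted p = 0.00734). Over the whole list of 22, 3 rose and 3 fell, the third of the latter being Dnajb4. Only 1 gene rose without wild-type replicate 1 or 2 at 90 min, and likewise without either GdX-deficient library at 90 min. Hspa1b has a close copy, Hspa1a (-1.43, did not pass), so the level of each is uncertain. The limma adjusted p of single genes passed 0.05 without wild-type replicate 1 at 90 min (Calr 0.152, Hsp90ab1 0.223, Dnajb4 0.235, Hspa4 0.259), without wild-type replicate 2 at 90 min (Hspa4 0.113, Hsp90ab1 0.143, Dnajb4 0.175, Calr 0.258), without wild-type replicate 1 at 6 h (Calr 0.071, Dnajb4 0.113), without wild-type replicate 2 at 6 h (Hspa4 0.0742), without GdX-deficient replicate 1 at 90 min (Hspa4 0.0504, Dnajb4 0.0551, Calr 0.0559, Hsp90ab1 0.0637) and without GdX-deficient replicate 2 at 90 min (Hspa4 0.0502, Dnajb4 0.0552, Calr 0.056, Hsp90ab1 0.0631). Calls also ended without a filter on low values (Calr, Dnajb4, Hsp90ab1, Hspa1b, Hspa4, Hspb1), after rescaling without globin genes (Dnajb4, Hspa4), in the fit of only the 4 wild-type libraries (Calr, Dnajb4, Hsp90ab1) and with quantile normalization (Hspa4). Of the heat shock genes, 1 rose without a filter on low values.

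Of 21 tested early cytokines, 6 fell and 1 rose (median -0.75). Il12b, the p40 subunit of IL-12 and IL-23, stood at 62.1 and 52.8 FPKM in the early libraries and 2.65 and 3.83 FPKM in the late ones (log2 change -3.79, SE 0.77, limma adjusted p = 0.017). Il6, the main driver of the acute phase, stood at 185 and 120.3 FPKM in the early libraries and 34.7 and 31.1 FPKM in the late ones (log2 change -2.15, SE 0.49, limma adjusted p = 0.0254). Il1b, the inflammasome-processed pyrogen, stood at 377 and 315 FPKM in the early libraries and 79.6 and 115 FPKM in the late ones (log2 change -1.84, SE 0.37, limma adjusted p = 0.0175). In each of them both late libraries were well below both early ones. Ifnb1, interferon beta, went from 12.1 and 5.68 to 0.39 and 0.20 FPKM (log2 change -2.86, SE 0.63, limma adjusted p = 0.0223) and lymphotoxin, Lta, from 36.7 and 40.1 to 7.89 and 8.98 FPKM (log2 change -2.06, SE 0.34, limma adjusted p = 0.00779). Outside the early wild-type libraries Ifnb1 was above 1 FPKM only in 1 GdX-deficient library (4.29 FPKM at 90 min). Its entry into the test thus rested largely on the libraries where it was high, which favours a fall. Csf2 fell as well (-1.29). Tnf, among the first transcripts to appear, was lower in both late libraries but did not pass (59.6 and 62.7 FPKM in the early libraries and 35.9 and 31.8 FPKM in the late ones; log2 change -0.84, SE 0.34, limma adjusted p = 0.141). Il10, which restrains macrophages, was at -1.14 and did not pass either (limma adjusted p = 0.234). With low genes kept in the test, 1 cytokine fell and none rose. Other ways of processing ended calls without a filter on low values (Ifnb1, Il12b, Il1b, Il6).

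The cytokine that rose was Ifng, which activates macrophages and comes from NK and T cells. It stood at 9.53 and 10.1 FPKM in the early libraries and 35.8 and 42.3 FPKM in the late ones (log2 change 1.89, SE 0.38, limma adjusted p = 0.0167). The late libraries lay well above the early ones. Tbx21, the T-bet factor that drives Ifng in those cells, rose alongside (5.3 and 8.26 FPKM in the early libraries and 24.9 and 33.7 FPKM in the late ones; log2 change 1.97, SE 0.32, limma adjusted p = 0.00766), and of the 13 markers of NK and cytotoxic cells Klrd1 (-2.07) and Ctsw (-1.5) fell and the other 10 did not pass. The decoy receptor Il1r2, which soaks up IL-1, rose from 19.4 and 16.1 to 42.4 and 42.3 FPKM (log2 change 1.21, SE 0.31, limma adjusted p = 0.0396). It was the 1 call among 8 anti-inflammatory cytokines and decoys. The antagonist Il1rn stood at 121 and 153 FPKM in the early libraries and 142 and 187 FPKM in the late ones and did not pass (limma adjusted p = 0.649). The call of Il1r2 was lost without wild-type replicate 1 (0.0928) or 2 (0.191) at 90 min, and that of Ctsw likewise (0.0996 and 0.0553). Without replicate 2 the NK list also held a second gene that rose, and without replicate 1 or 2 only 1 that fell. Beyond single libraries, calls depended on the setting and ended without a filter on low values (Ifng, Il1r2), after rescaling without globin genes (Il1r2) and with quantile normalization (Il1r2).

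Among chemokines 6 of 20 fell and 1 rose (median -1.05). Ccl4, which calls in monocytes and T cells, stood at 1088 and 878 FPKM in the early libraries and 128 and 82.7 FPKM in the late ones (log2 change -3.24, SE 0.54, limma adjusted p = 0.00873). Cxcl1, a neutrophil attractant, stood at 513 and 359 FPKM in the early libraries and 66.2 and 42.7 FPKM in the late ones (log2 change -2.99, SE 0.69, limma adjusted p = 0.0269). Ccl2, the ligand of CCR2 on monocytes, stood at 442 and 316 FPKM in the early libraries and 89.5 and 57.7 FPKM in the late ones (log2 change -2.36, SE 0.51, limma adjusted p = 0.0217). In all 3 the late libraries lay below the early ones and the genes were still expressed. Cxcl5 fell too (-2.15). Cxcl10, an interferon-induced ligand of CXCR3, did not pass (2355 and 2475 FPKM in the early libraries and 1394 and 1304 FPKM in the late ones; limma adjusted p = 0.145). Cxcl9, the CXCR3 ligand that depends most on interferon-gamma, rose from 69.2 and 84.8 to 200.1 and 223 FPKM (log2 change 1.45, SE 0.24, limma adjusted p = 0.00873). With low genes kept in the test no chemokine fell (limma adjusted p = 0.0692 for Ccl4, 0.13 for Cxcl1 and 0.106 for Ccl2). The call of Cxcl9 was lost without wild-type replicate 1 at 90 min (0.0660), which also left 4 falling chemokines. Of 7 homeostatic chemokines and receptors that organise the white pulp, Cxcl12 fell (119.8 and 111 to 48.4 and 57.7 FPKM; -1.11), but not without wild-type replicate 1 (limma adjusted p = 0.167) or 2 (0.104) at 90 min. That list had 3 falling genes without either wild-type library at 6 h or either GdX-deficient library at 90 min. Changes of the other settings ended calls without a filter on low values (Ccl2, Ccl4, Cxcl1, Cxcl5) and with quantile normalization (Cxcl5).

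Immediate early transcription factors, switched on by kinases without new protein synthesis, were lower at 6 h for 18 of 20 members, and 11 of them fell (median -1.48). Nr4a3, an orphan nuclear receptor, stood at 22.4 and 31.9 FPKM in the early libraries and 2.41 and 4.08 FPKM in the late ones (log2 change -2.74, SE 0.42, limma adjusted p = 0.00646). Egr1 stood at 52.3 and 58.1 FPKM in the early libraries and 11.2 and 12.6 FPKM in the late ones (log2 change -2.12, SE 0.45, limma adjusted p = 0.0195) and Fos, a partner in the AP-1 dimer, at 15.3 and 18.3 FPKM in the early libraries and 3.39 and 4.79 FPKM in the late ones (log2 change -1.81, SE 0.37, limma adjusted p = 0.0186). The antiproliferative Btg2 had replicates almost identical at each time, 112 and 113 FPKM in the early libraries and 22.9 and 23.2 FPKM in the late ones (log2 change -2.24, SE 0.23, limma adjusted p = 0.00131). The members that did not pass include Atf3 (0.01) and Klf6 (0.07). The count was 7 without wild-type replicate 2 at 90 min, where the adjusted p of Fos was 0.0644, and 17 without replicate 2 at 6 h. Changing one setting at a time, calls were lost without a filter on low values (Egr1, Fos, Nr4a3). Of the immediate early factors, 2 fell without a filter on low values.

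Of 23 NF-kB subunits and feedback genes, 2 fell, Tnip3, an A20-binding inhibitor (44.1 and 46 to 6.89 and 9.94 FPKM; log2 change -2.31, SE 0.47, limma adjusted p = 0.0178), and Nfkbiz, the nuclear IkB-zeta needed for Il6 (220.2 and 256 to 45.9 and 76.5 FPKM; log2 change -1.98, SE 0.55, limma adjusted p = 0.0499). Nfkbia, the classic IkB-alpha, stood at 1516 and 1266 FPKM in the early libraries and 930.3 and 536 FPKM in the late ones and did not pass (limma adjusted p = 0.176). Tnfaip3, the ubiquitin editor A20, stood at 162 and 251 FPKM in the early libraries and 55.1 and 119.8 FPKM in the late ones (limma adjusted p = 0.134). Nfkbiz was called in only 8 of 16 alternatives, with limma adjusted p between 0.000717 and 0.171 (0.050 without the GdX-deficient library at 6 h). The list had 4 falling genes without wild-type replicate 1 at 90 min or at 6 h, and 9 without replicate 2 at 6 h. Of 15 phosphatases and mRNA decay factors, 2 fell: Zfp36, tristetraprolin, which degrades Tnf mRNA (404 and 431 to 123 and 130.1 FPKM; log2 change -1.71, SE 0.35, limma adjusted p = 0.0183), and Dusp8 (-1.06). Of 17 JAK-STAT genes Socs3, the feedback inhibitor of IL-6 receptors (269 and 422 to 71.7 and 135 FPKM; log2 change -1.76, SE 0.45, limma adjusted p = 0.0387), and Stat4 (-1.0) fell. Leaving out 1 library ended single calls, with the limma adjusted p then in parentheses: without wild-type replicate 1 at 90 min (Dusp8 0.163, Stat4 0.259), without wild-type replicate 2 at 90 min (Socs3 0.0708, Dusp8 0.0927, Stat4 0.208), without wild-type replicate 1 at 6 h (Stat4 0.114), without GdX-deficient replicate 1 at 90 min (Stat4 0.0535) and without GdX-deficient replicate 2 at 90 min (Stat4 0.0533). Without replicate 2 at 6 h, 6 decay factors and 7 JAK-STAT genes fell. Calls also ended without a filter on low values (Il6, Nfkbiz, Socs3, Stat4, Tnip3, Zfp36), after rescaling without globin genes (Nfkbiz, Socs3, Stat4), in the fit of only the 4 wild-type libraries (Stat4), with quantile normalization (Nfkbiz), with a pseudocount of 0.1 (Nfkbiz), with a mean of at least 5 FPKM (Nfkbiz), with the length trend removed (Nfkbiz) and without a trend of the prior variance (Nfkbiz, Stat4).

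Of 21 Toll-like receptor genes and adaptors 5 fell (median -0.50). Tlr2, which detects lipoproteins, stood at 43.8 and 44.6 FPKM in the early libraries and 8.36 and 11.6 FPKM in the late ones (log2 change -2.06, SE 0.27, limma adjusted p = 0.00381) and kept its call in every alternative. Cd14, which hands LPS to TLR4, went from 268 and 316 to 125 and 155 FPKM (log2 change -1.06, SE 0.27, limma adjusted p = 0.0393). Tlr1 (-1.3), Ticam2 (-1.06) and Tlr8 (-0.94) also fell, whereas Tlr4 itself was at -0.28 and did not pass. In this list 1 gene fell without wild-type replicate 1 or 2 at 90 min or replicate 1 at 6 h, and 3 without either GdX-deficient library at 90 min. Some of these calls lapsed when 1 library was left out (limma adjusted p in parentheses), namely without wild-type replicate 1 at 90 min (Tlr1 0.0692, Cd14 0.116, Ticam2 0.128), without wild-type replicate 2 at 90 min (Tlr1 0.146, Cd14 0.23, Ticam2 0.357), without wild-type replicate 1 at 6 h (Cd14 0.0635, Tlr1 0.0658, Ticam2 0.116), without GdX-deficient replicate 1 at 90 min (Tlr1 0.0506, Ticam2 0.0606), without GdX-deficient replicate 2 at 90 min (Tlr1 0.0505, Ticam2 0.0619) and without the GdX-deficient library at 6 h (Ticam2 0.050). None of 13 inflammasome and pyroptosis genes passed (limma; 3 at an unadjusted p under 0.05). Casp4, the caspase that binds intracellular LPS, stood at 90.7 and 94.5 FPKM in the early libraries and 66.4 and 87.9 FPKM in the late ones (adjusted p = 0.553). With a replicate block or the length trend removed, 2 inflammasome genes fell. Other ways of processing ended calls without a filter on low values (Cd14, Ticam2, Tlr1), after rescaling without globin genes (Cd14, Ticam2, Tlr1), in the fit of only the 4 wild-type libraries (Ticam2, Tlr1), with a pseudocount of 0.1 (Ticam2) and without a trend of the prior variance (Cd14). Of the Toll-like receptor genes, 1 fell without a filter on low values and 1 fell after rescaling without globin genes.

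Of 36 antiviral genes that interferon induces, 3 rose, 2 fell and 31 did not pass. The called share was 13.9%, near the 10.7% of all tested genes. In the list 18 had positive and 18 negative changes, and the median was 0.05. Ifit1, which binds viral RNA caps and belongs to the first wave behind IRF3, fell from 509 and 444 to 141 and 133 FPKM (log2 change -1.79, SE 0.25, limma adjusted p = 0.0048) and was called in every alternative, and its neighbour Ifit3 fell from 576 and 594 to 281 and 303 FPKM (log2 change -1.0, SE 0.25, limma adjusted p = 0.0341). Zbp1, a sensor of Z-form nucleic acids, rose from 208 and 223 to 498 and 509.6 FPKM (log2 change 1.22, SE 0.29, limma adjusted p = 0.0314), as did Oasl2 (1.24) and Oas1a (1.15). Irf7, the amplifier of the interferon loop, stood at 227 and 345 FPKM in the early libraries and 481 and 561 FPKM in the late ones and did not pass (limma adjusted p = 0.0866). The summed level of the 36 genes was 5854 and 7037 FPKM in the early libraries and 6948 and 6865 FPKM in the late ones. Of 16 interferon-inducible GTPases, which attack vacuoles with pathogens, Gbp2 rose from 74.9 and 102 to 233 and 345 FPKM (log2 change 1.69, SE 0.31, limma adjusted p = 0.0122) and the other 15 did not pass. Igtp stood at 220.3 and 271 FPKM in the early libraries and 197 and 230.5 FPKM in the late ones. The limma adjusted p of single genes passed 0.05 without wild-type replicate 1 at 90 min (Zbp1 0.137, Ifit3 0.205, Oasl2 0.295, Oas1a 0.295), without wild-type replicate 2 at 90 min (Zbp1 0.088, Ifit3 0.226), without GdX-deficient replicate 1 at 90 min (Oas1a 0.0515, Ifit3 0.0554, Oasl2 0.0658) and without GdX-deficient replicate 2 at 90 min (Oas1a 0.0521, Ifit3 0.0553, Oasl2 0.0659). The numbers that rose and fell were 6 and 2 without replicate 1 at 6 h, and 5 and 10 without replicate 2. Beyond single libraries, calls depended on the setting and ended without a filter on low values (Gbp2, Ifit3, Oas1a, Oasl2, Zbp1), after rescaling without globin genes (Oas1a, Oasl2, Zbp1), in the fit of only the 4 wild-type libraries (Ifit3, Oas1a, Oasl2), with quantile normalization (Oas1a, Oasl2), with the length trend removed (Oas1a) and without a trend of the prior variance (Oas1a, Oasl2). Of the antiviral genes, 1 fell without a filter on low values, 2 fell after rescaling without globin genes and 1 rose and 1 fell in the fit of only the 4 wild-type libraries.

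Of 18 genes for acute phase and antimicrobial proteins 5 rose and none fell (median 0.87). Saa3, serum amyloid A3, stood at 120.3 and 109 FPKM in the early libraries and 2040.4 and 1033 FPKM in the late ones (log2 change 3.65, SE 0.43, limma adjusted p = 0.00221). Lcn2, lipocalin 2, which starves bacteria of siderophore iron, stood at 103 and 118 FPKM in the early libraries and 476 and 629 FPKM in the late ones (log2 change 2.3, SE 0.26, limma adjusted p = 0.00197). Cfb, complement factor B, went from 46.4 and 52.7 to 155 and 208 FPKM and Hp, haptoglobin, from 35.6 and 38.9 to 119 and 117 FPKM (log2 changes 1.84 and 1.64). In these 4 genes every late library was above every early one, and the calls held in every alternative. The list had 9 rising genes without replicate 1 at 6 h. Nos2, inducible nitric oxide synthase, was low at both times (0.32 and 0.97 FPKM in the early libraries and 1.48 and 3.21 FPKM in the late ones) and did not pass (limma adjusted p = 0.0961). The calprotectin subunit S100a8, abundant in neutrophils, stood at 438 and 292 FPKM in the early libraries and 475 and 352 FPKM in the late ones, with overlapping libraries.

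Of 16 coagulation genes 4 fell: Thbd, thrombomodulin, which turns thrombin into an anticoagulant (12.7 and 17.5 to 1.47 and 3.14 FPKM; log2 change -2.31, SE 0.39, limma adjusted p = 0.00961), Serpinb2, an inhibitor of plasminogen activators (3.78 and 5.28 to 0.14 and 0.51 FPKM; -2.06), Tfpi2 (-1.87) and Thbs1 (-1.44). Of 20 genes of the prostaglandin and leukotriene pathway 5 fell. They include Ltc4s, leukotriene C4 synthase (7.97 and 5.34 to 1.17 and 0.96 FPKM; log2 change -1.87, SE 0.31, limma adjusted p = 0.00804), Tbxas1, thromboxane synthase (-1.76), the constitutive cyclooxygenase Ptgs1 (-1.52) and Hpgd, which inactivates prostaglandins (-1.34). The inducible cyclooxygenase Ptgs2 was at -1.75 and did not pass (limma adjusted p = 0.0755). The lipid mediator list had 2 falling genes without wild-type replicate 1 or 2 at 90 min. Leaving out 1 library ended single calls, with the limma adjusted p then in parentheses: without wild-type replicate 1 at 90 min (Thbs1 0.0558, Ptgs1 0.0737, Hpgd 0.119), without wild-type replicate 2 at 90 min (Ptgs1 0.0945, Hpgd 0.123, Thbs1 0.16), without wild-type replicate 1 at 6 h (Thbs1 0.11), without GdX-deficient replicate 1 at 90 min (Thbs1 0.0815) and without GdX-deficient replicate 2 at 90 min (Thbs1 0.0814). Changes of the other settings ended calls without a filter on low values (Thbd, Thbs1), after rescaling without globin genes (Thbs1) and in the fit of only the 4 wild-type libraries (Thbs1). Of the coagulation genes, 2 fell without a filter on low values.

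**Figure D3:**
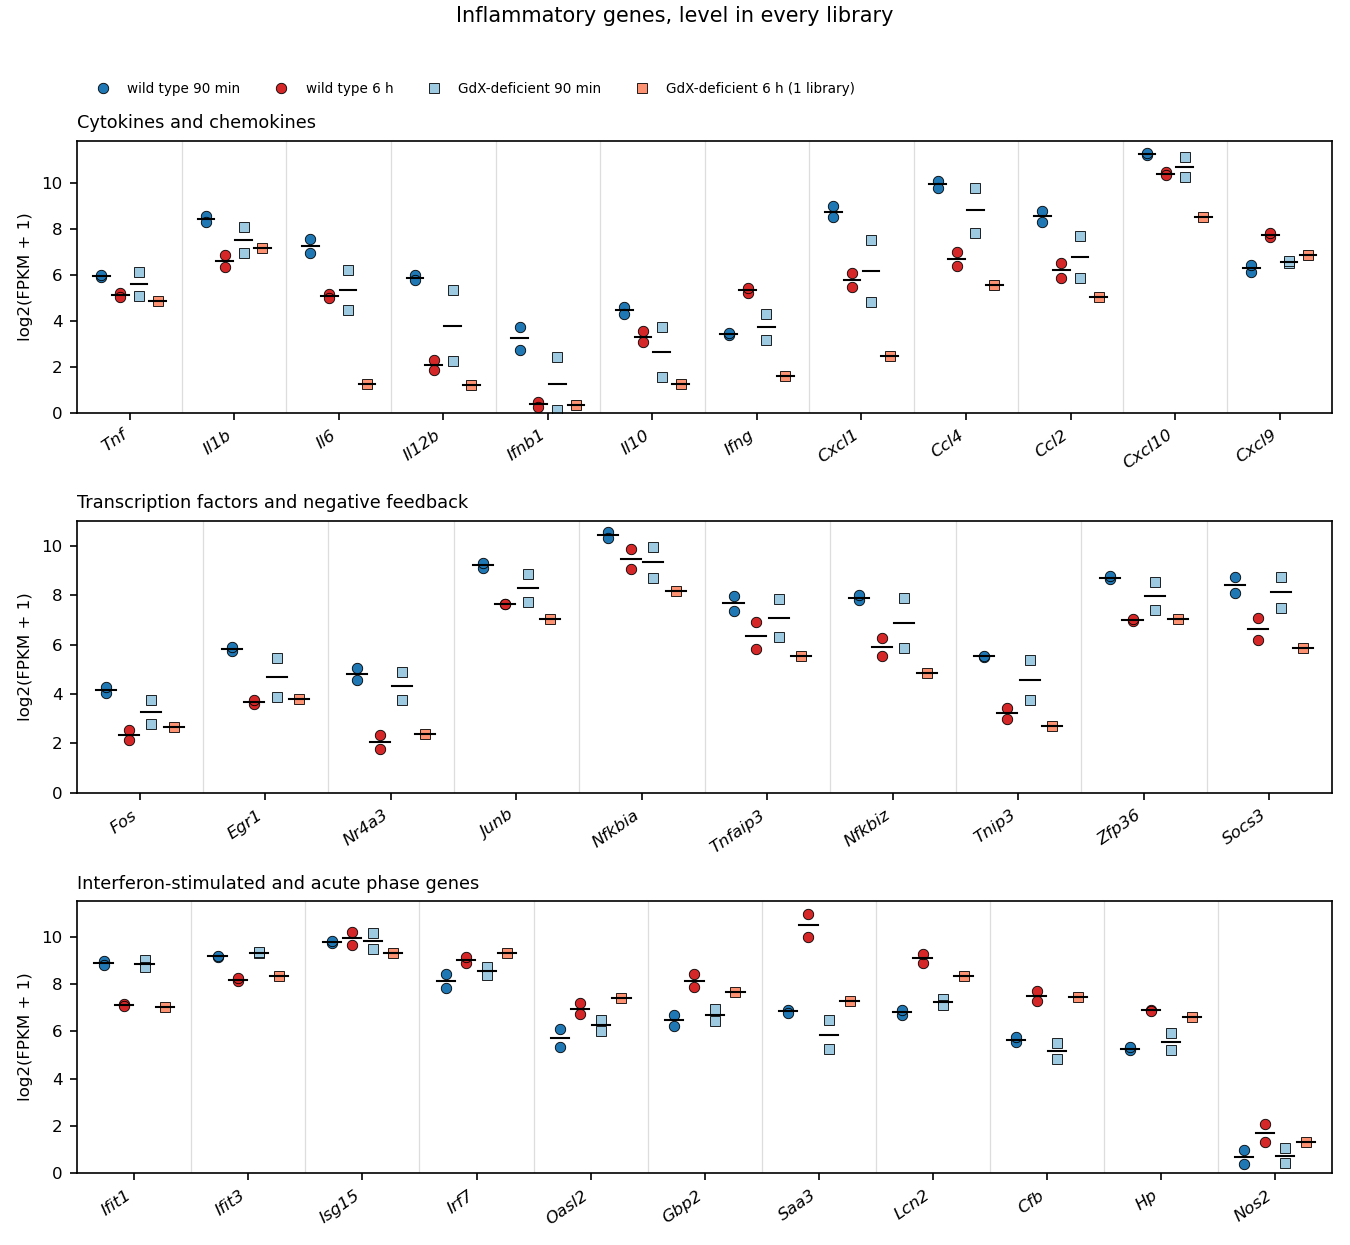
Level of cytokine and chemokine genes, transcription factor and feedback genes, and interferon-stimulated and acute phase genes as log2(FPKM + 1) on the y axis. Each point is 1 library, circles are wild type and squares GdX-deficient, and the short bars are group means. In wild type Il12b, Cxcl1 and Ccl4 lie lower at 6 h, and Ifng, Cxcl9, Gbp2, Saa3 and Lcn2 higher.

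MHC class II, which presents extracellular peptides to CD4 T cells, is built on B cells, dendritic cells and macrophages. Of its 15 listed genes 10 fell and none rose (median -1.59). The 10 are chain and loading genes, and the 5 that did not pass are the regulators Ciita, Rfx5, Rfxank and Rfxap and the protease Ctss. H2-Oa and H2-Ob, the DO dimer that restrains peptide exchange in B cells, stood at 109 and 84.8 FPKM in the early libraries and 10.5 and 7.66 FPKM in the late ones (log2 change -3.29, SE 0.27, limma adjusted p = 0.000518) and at 136 and 128 FPKM in the early libraries and 11.5 and 12.1 FPKM in the late ones (log2 change -3.38, SE 0.28, limma adjusted p = 0.000518). H2-Aa, a classical alpha chain, stood at 2301 and 2068 FPKM in the early libraries and 401 and 367 FPKM in the late ones (log2 change -2.51, SE 0.28, limma adjusted p = 0.00197). H2-Eb1, a classical beta chain, stood at 913 and 1006 FPKM in the early libraries and 183 and 188 FPKM in the late ones (log2 change -2.36, SE 0.26, limma adjusted p = 0.00179). The replicates of these genes were close at each time and the 2 times far apart. Cd74, the invariant chain, fell from 4704 and 6148 to 1836 and 1763 FPKM (-1.58). Ciita, the master coactivator, stood at 7.6 and 10.1 FPKM in the early libraries and 3.19 and 7.53 FPKM in the late ones and did not pass (limma adjusted p = 0.354). Cd74 lost its call without wild-type replicate 1 (0.0709) or 2 (0.186) at 90 min and without GdX-deficient replicate 1 (0.0569) or 2 (0.0581) at 90 min. Changing one setting at a time, calls were lost without a filter on low values (Cd74) and in the fit of only the 4 wild-type libraries (Cd74).

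Class II promoters carry a conserved X box, bound by the RFX complex, and a Y box, bound by NF-Y. The 3 printed here belong to H2-Eb1 at chr17:34305617-34305916 (plus strand), H2-Aa at chr17:34287774-34288073 (minus strand) and H2-Oa at chr17:34092129-34092428 (plus strand), from RefSeq, GRCm38.p6, in the same window and orientation as above. They are shown since these genes fell together. Capitals mark matches on either strand to the X box core TAGCAAC and to the Y box CTGATTGG, which contains the reverse complement of CCAAT. In H2-Eb1 the X box core begins at -93 and the Y box at -62, and the Y box begins at -51 in H2-Aa and at -46 in H2-Oa.

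The 3 class II promoters are these.
H2-Eb1: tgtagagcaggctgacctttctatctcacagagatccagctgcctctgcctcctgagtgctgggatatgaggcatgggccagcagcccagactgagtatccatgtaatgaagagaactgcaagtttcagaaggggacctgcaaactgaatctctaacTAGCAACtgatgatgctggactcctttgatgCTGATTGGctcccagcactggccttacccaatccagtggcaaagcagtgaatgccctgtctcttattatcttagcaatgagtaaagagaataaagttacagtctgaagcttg
H2-Aa: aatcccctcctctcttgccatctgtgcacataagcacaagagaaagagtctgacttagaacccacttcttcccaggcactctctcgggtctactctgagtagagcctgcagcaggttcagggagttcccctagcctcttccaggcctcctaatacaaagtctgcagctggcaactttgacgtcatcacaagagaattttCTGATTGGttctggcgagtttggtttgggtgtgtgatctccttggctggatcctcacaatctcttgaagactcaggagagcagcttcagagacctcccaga
H2-Oa: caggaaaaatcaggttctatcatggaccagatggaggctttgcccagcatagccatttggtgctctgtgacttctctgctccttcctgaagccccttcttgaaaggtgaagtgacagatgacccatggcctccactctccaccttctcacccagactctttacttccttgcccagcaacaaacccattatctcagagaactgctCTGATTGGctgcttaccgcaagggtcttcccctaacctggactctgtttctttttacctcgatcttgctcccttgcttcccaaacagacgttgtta

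Over all RefSeq promoters of this length 3.66% hold the X box core and 4.1% the Y box (4.28% and 4.7% of genes). Among the 8 falling class II genes with a promoter entry, 3 hold the X box core (H2-Eb1, H2-Eb2 and H2-Ob) and 4 the Y box (H2-Aa, H2-Eb1, H2-Eb2 and H2-Oa), and among 3 members that did not pass none holds either. In H2-Eb2 the X box core begins at -11 and the Y box at -103, the reverse of their order in H2-Eb1. H2-Ab1, Cd74, Ciita and Rfxap have no entry. These class II genes are expressed by B cells and dendritic cells, some of whose markers fell, 7 of 17 for B cells and 5 of 11 for dendritic cells. The B cell markers summed to 2295 and 2263 FPKM in the early libraries and 881 and 971 FPKM in the late ones, and the class II list to 11768 and 12799 FPKM in the early libraries and 3606 and 3254 FPKM in the late ones. The dendritic cell markers summed to more in both late libraries, 437 and 401 FPKM in the early libraries and 972 and 484 FPKM in the late ones, with Bst2 the largest part of each sum. No B cell or dendritic cell marker was at 0 in a wild-type library. The part of these cells in the class II change was not tested.

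MHC class I, which presents the cell's own peptides, gave calls upward. Of 20 class I and immunoproteasome genes 4 rose and none fell (median 0.51). Psme2, a subunit of the interferon-induced proteasome activator PA28, stood at 525 and 398 FPKM in the early libraries and 1438 and 837 FPKM in the late ones (log2 change 1.26, SE 0.34, limma adjusted p = 0.0458), and its partner Psme1 at 349 and 323 FPKM in the early libraries and 805 and 603 FPKM in the late ones (log2 change 1.05, SE 0.27, limma adjusted p = 0.0393). Tap2, which pumps peptides into the endoplasmic reticulum, went from 61.9 and 76.5 to 156 and 139 FPKM (1.09) and Tapbpl, a peptide editor, from 26.2 and 35 to 54.1 and 68.9 FPKM (0.99). The heavy chain H2-K1 was at -0.05 and B2m at -0.05. None of the 4 passed without wild-type replicate 1 or without replicate 2 at 90 min, and 1 passed without either GdX-deficient library at 90 min or in the fit of the 4 wild-type libraries. Some of these calls lapsed when 1 library was left out (limma adjusted p in parentheses), namely without wild-type replicate 1 at 90 min (Psme2 0.0671, Psme1 0.171, Tap2 0.224, Tapbpl 0.36), without wild-type replicate 2 at 90 min (Tap2 0.0735, Tapbpl 0.107, Psme2 0.22, Psme1 0.224), without wild-type replicate 1 at 6 h (Psme1 0.0791, Psme2 0.0819), without wild-type replicate 2 at 6 h (Tapbpl 0.099), without GdX-deficient replicate 1 at 90 min (Psme1 0.0628, Tapbpl 0.0637, Psme2 0.0757) and without GdX-deficient replicate 2 at 90 min (Psme1 0.063, Tapbpl 0.0636, Psme2 0.0765). Calls also ended without a filter on low values (Psme1, Psme2, Tapbpl), after rescaling without globin genes (Tap2, Tapbpl), in the fit of only the 4 wild-type libraries (Psme1, Psme2, Tapbpl), with quantile normalization (Tapbpl) and without a trend of the prior variance (Tapbpl). Of the class I genes, 1 rose without a filter on low values, 2 rose after rescaling without globin genes and 1 rose in the fit of only the 4 wild-type libraries.

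Among cell type markers nearly all calls were downward, but in every list of spleen cells except the erythroid one most of the members did not pass. Summed levels went the other way in 4 lists, where both late libraries were above both early ones: dendritic cells (given above), NK and cytotoxic cells (297 and 319 FPKM in the early libraries and 407 and 428 FPKM in the late ones), neutrophils (1412 and 954 FPKM in the early libraries and 1657 and 1451 FPKM in the late ones) and marginal zone macrophages (189 and 174 FPKM in the early libraries and 329 and 211 FPKM in the late ones). In a whole organ, fewer cells of a type and less RNA per cell cannot be told apart, and a rise of other transcripts lowers the share of the rest. Among the marker lists the erythroid one had the most calls, 19 of 29 lower and none higher (median -1.24), and all 29 had a negative change. Rhd, a red cell membrane channel, stood at 45.7 and 45.5 FPKM in the early libraries and 6.75 and 6.84 FPKM in the late ones (log2 change -2.58, SE 0.24, limma adjusted p = 0.000943). Trim10, of late erythroid cells, stood at 30.3 and 39.8 FPKM in the early libraries and 5.84 and 8.41 FPKM in the late ones (log2 change -2.16, SE 0.28, limma adjusted p = 0.00338), and Kel, a blood group protease, had a log2 change of -2.14. The wild-type spleens at 6 h held the low values for each. The fall goes with the globin share given above. The number of falling markers was 11 without wild-type replicate 1 and 8 without replicate 2 at 90 min, and Rhd, Trim10 and Kel were called in every alternative. Of the erythroid markers, 9 fell without a filter on low values.

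Of 17 B cell markers 7 fell (median -1.12). Cd79a (values above) had the largest fall of the list (log2 change -3.04, SE 0.30, limma adjusted p = 0.00128), with both late libraries far below both early ones. Fcer2a, the low-affinity IgE receptor CD23 of follicular B cells, stood at 143 and 178 FPKM in the early libraries and 17.7 and 27.5 FPKM in the late ones (log2 change -2.8, SE 0.29, limma adjusted p = 0.00131). Bank1 (-1.88) and the kinase Blk (-1.64) fell as well. The members did not move alike. Pax5 and Ebf1, which fix B cell identity, had log2 changes of -0.33 and -0.13, Cd22 was at 0.57, and none of these passed. One plasma cell marker of 7 fell, Mzb1 (-1.21), and not in the fits without wild-type replicate 1 at 90 min (limma adjusted p = 0.246), wild-type replicate 2 at 6 h (0.0576), or GdX-deficient replicate 1 (0.0609) or 2 (0.0610) at 90 min. Other ways of processing ended calls without a filter on low values (Mzb1) and in the fit of only the 4 wild-type libraries (Mzb1). Of the B cell markers, 4 fell without a filter on low values.

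Of 18 T cell markers 7 fell (median -0.95). Cd3g, a chain of the T cell receptor complex, stood at 81.5 and 61.1 FPKM in the early libraries and 22.5 and 15.8 FPKM in the late ones (log2 change -1.85, SE 0.30, limma adjusted p = 0.00734) and was called in every alternative. Cd4 (-1.39), Lck (-1.19), Themis (-1.5) and Cd3e (-1.08) fell too, and Cd8a was at -0.72 without passing. Without wild-type replicate 1 or without replicate 2 at 90 min, Cd3g was the 1 T cell marker called. The limma adjusted p of single genes passed 0.05 without wild-type replicate 1 at 90 min (Themis 0.0537, Cd4 0.0698, Lck 0.125, Cd3e 0.145), without wild-type replicate 2 at 90 min (Themis 0.0741, Lck 0.0852, Cd4 0.156, Cd3e 0.233) and without wild-type replicate 1 at 6 h (Cd3e 0.0545). Summed over the list the level was 778 and 722 FPKM in the early libraries and 380.4 and 386 FPKM in the late ones. Beyond single libraries, calls depended on the setting and ended without a filter on low values (Cd3e, Cd4, Themis) and after rescaling without globin genes (Cd3e). Of the T cell markers, 2 fell without a filter on low values.

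Red pulp macrophages clear old red cells and recycle their iron. Of their 16 markers 7 fell (median -0.87). Slc40a1, ferroportin, the iron exporter, stood at 15.3 and 14.8 FPKM in the early libraries and 1.26 and 2.07 FPKM in the late ones (log2 change -2.61, SE 0.33, limma adjusted p = 0.0033). Vcam1 (values above) had a log2 change of -2.59. Trf, transferrin, went from 67.1 and 102 to 14.3 and 19.9 FPKM (-2.23) and Cd5l from 33.7 and 33.1 to 8.36 and 6.37 FPKM (-2.05). These were called in every alternative. The complement gene C1qa was at -0.55 and Adgre1, F4/80, at -0.88, and neither passed. Of 6 genes listed for marginal zone macrophages Mrc1, the mannose receptor, fell (14.3 and 14.9 to 2.28 and 3.56 FPKM; -2.01). Which cells held Mrc1 was not tested. Marco, a scavenger receptor, was higher in both late libraries without passing (129 and 105 FPKM in the early libraries and 275 and 160.3 FPKM in the late ones; limma adjusted p = 0.131). The list had 1 rising gene without wild-type replicate 2 at 6 h.

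Of 11 dendritic cell markers 5 fell, 6 did not pass, and 2 of these 6 were higher in both late libraries. Cd209a, DC-SIGN, went from 7.62 and 7.69 to 0.23 and 0.13 FPKM (log2 change -2.88, SE 0.29, limma adjusted p = 0.00129), and Clec9a of cross-presenting cells from 2.85 and 2.99 to 0.31 and 0.50 FPKM (-1.48). Itgax (-1.51) and the lineage factor Zbtb46 (-1.12) fell. The 2 higher ones were Flt3 (0.13) and Bst2, of plasmacytoid cells and also induced by interferon, which stood at 293 and 265 FPKM in the early libraries and 843 and 400.4 FPKM in the late ones (log2 change 1.06, SE 0.36, limma adjusted p = 0.0933). The count was 2 without either wild-type library at 90 min, and 3 without replicate 1 at 6 h. Among 10 monocyte markers 4 fell, Csf1r (-1.56), Ace (-1.43), Lyz2 (-1.3) and Cx3cr1 (-1.03), but 2 without replicate 1 and 0 without replicate 2 at 90 min. Another 3 monocyte markers were higher in both late libraries without passing. The neutrophil list was divided, with Lcn2 up and the granule genes of immature cells Elane (-1.4) and Mpo (-1.08) down among 16. That list had no falling gene without wild-type replicate 1 at 90 min and 5 without replicate 1 at 6 h. Leaving out 1 library ended single calls, with the limma adjusted p then in parentheses: without wild-type replicate 1 at 90 min (Itgax 0.066, Lyz2 0.0892, Cx3cr1 0.142, Elane 0.186, Mpo 0.187, Zbtb46 0.246), without wild-type replicate 2 at 90 min (Mpo 0.0937, Lyz2 0.119, Ace 0.13, Cx3cr1 0.136, Itgax 0.136, Csf1r 0.158, Zbtb46 0.248), without wild-type replicate 1 at 6 h (Csf1r 0.0559, Zbtb46 0.0794), without wild-type replicate 2 at 6 h (Cx3cr1 0.0508), without GdX-deficient replicate 1 at 90 min (Csf1r 0.0753) and without GdX-deficient replicate 2 at 90 min (Csf1r 0.0748). Changes of the other settings ended calls without a filter on low values (Ace, Clec9a, Csf1r, Cx3cr1, Elane, Itgax, Lyz2, Zbtb46), after rescaling without globin genes (Csf1r, Cx3cr1, Zbtb46), in the fit of only the 4 wild-type libraries (Csf1r), with quantile normalization (Cx3cr1) and without a trend of the prior variance (Cx3cr1). Of the dendritic cell markers, 1 fell without a filter on low values and 3 fell after rescaling without globin genes. Of the monocyte markers, none passed without a filter on low values and 2 fell after rescaling without globin genes.

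Of 15 stromal and smooth muscle genes 7 fell (median -1.03), among them Tagln (142 and 75.7 to 24.1 and 19.1 FPKM; log2 change -2.22, SE 0.34, limma adjusted p = 0.00646), Acta2, smooth muscle actin (43 and 19.9 to 6.25 and 7.49 FPKM; -1.95), Cnn1 (8.35 and 1.81 to 0.17 and 0.17 FPKM; -2.13) and Col1a2 (-1.67). In Tagln, Acta2 and Cnn1 the early replicate 1 was far above replicate 2. The count was 2 without wild-type replicate 1 and 4 without replicate 2 at 90 min, and 4 without either GdX-deficient library at 90 min. Of 15 endothelial genes 4 fell: Vcam1, the early adhesion molecule Sele (8.35 and 9.27 to 0.47 and 1.02 FPKM; log2 change -2.51, SE 0.50, limma adjusted p = 0.016), the sinusoidal scavenger Stab2 (-1.64) and Tie1 (-1.21). Sele and Vcam1 are known to be induced by LPS in endothelium. Without wild-type replicate 2 at 90 min 2 endothelial genes fell. Some of these calls lapsed when 1 library was left out (limma adjusted p in parentheses), namely without wild-type replicate 1 at 90 min (Col1a2 0.0588, Tie1 0.118, Acta2 0.124), without wild-type replicate 2 at 90 min (Col1a2 0.0666, Stab2 0.0846, Tie1 0.276), without wild-type replicate 1 at 6 h (Tie1 0.0995), without GdX-deficient replicate 1 at 90 min (Tie1 0.053, Cnn1 0.0564) and without GdX-deficient replicate 2 at 90 min (Tie1 0.0541, Cnn1 0.056). Changing one setting at a time, calls were lost without a filter on low values (Acta2, Cnn1, Col1a2, Sele, Stab2, Tie1), after rescaling without globin genes (Tie1), in the fit of only the 4 wild-type libraries (Cnn1, Tie1) and with quantile normalization (Cnn1). Of the stromal genes, 2 fell without a filter on low values and 4 fell in the fit of only the 4 wild-type libraries. Of the endothelial genes, 1 fell without a filter on low values.

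Of 10 platelet markers Ppbp fell (-0.89) and of 4 mast cell and basophil markers none passed (limma; 3 at an unadjusted p under 0.05). Tissues that lie beside the spleen were looked for as well. Of the pancreas list Cela1 fell (8.17 and 7.12 to 3.42 and 2.46 FPKM; -1.14), with the digestive enzymes Cpa1 and Ctrb1 at 0 in all 4 libraries, and of the fat list Fabp4, also made by macrophages and endothelium, fell (50.9 and 37.3 to 20.9 and 10.1 FPKM; -1.52), with Adipoq at 0 in 1 library of each time. The limma adjusted p of single genes passed 0.05 without wild-type replicate 1 at 90 min (Fabp4 0.158, Ppbp 0.265, Cela1 0.288), without wild-type replicate 2 at 90 min (Cela1 0.195, Ppbp 0.272), without wild-type replicate 1 at 6 h (Ppbp 0.138), without wild-type replicate 2 at 6 h (Fabp4 0.0512, Cela1 0.0957), without GdX-deficient replicate 1 at 90 min (Cela1 0.0514, Fabp4 0.0579, Ppbp 0.0628) and without GdX-deficient replicate 2 at 90 min (Cela1 0.0517, Fabp4 0.0578, Ppbp 0.0627). Calls also ended without a filter on low values (Cela1, Fabp4, Ppbp), after rescaling without globin genes (Cela1, Ppbp), in the fit of only the 4 wild-type libraries (Cela1, Fabp4, Ppbp), with quantile normalization (Cela1) and without a trend of the prior variance (Ppbp).

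**Figure D4:**
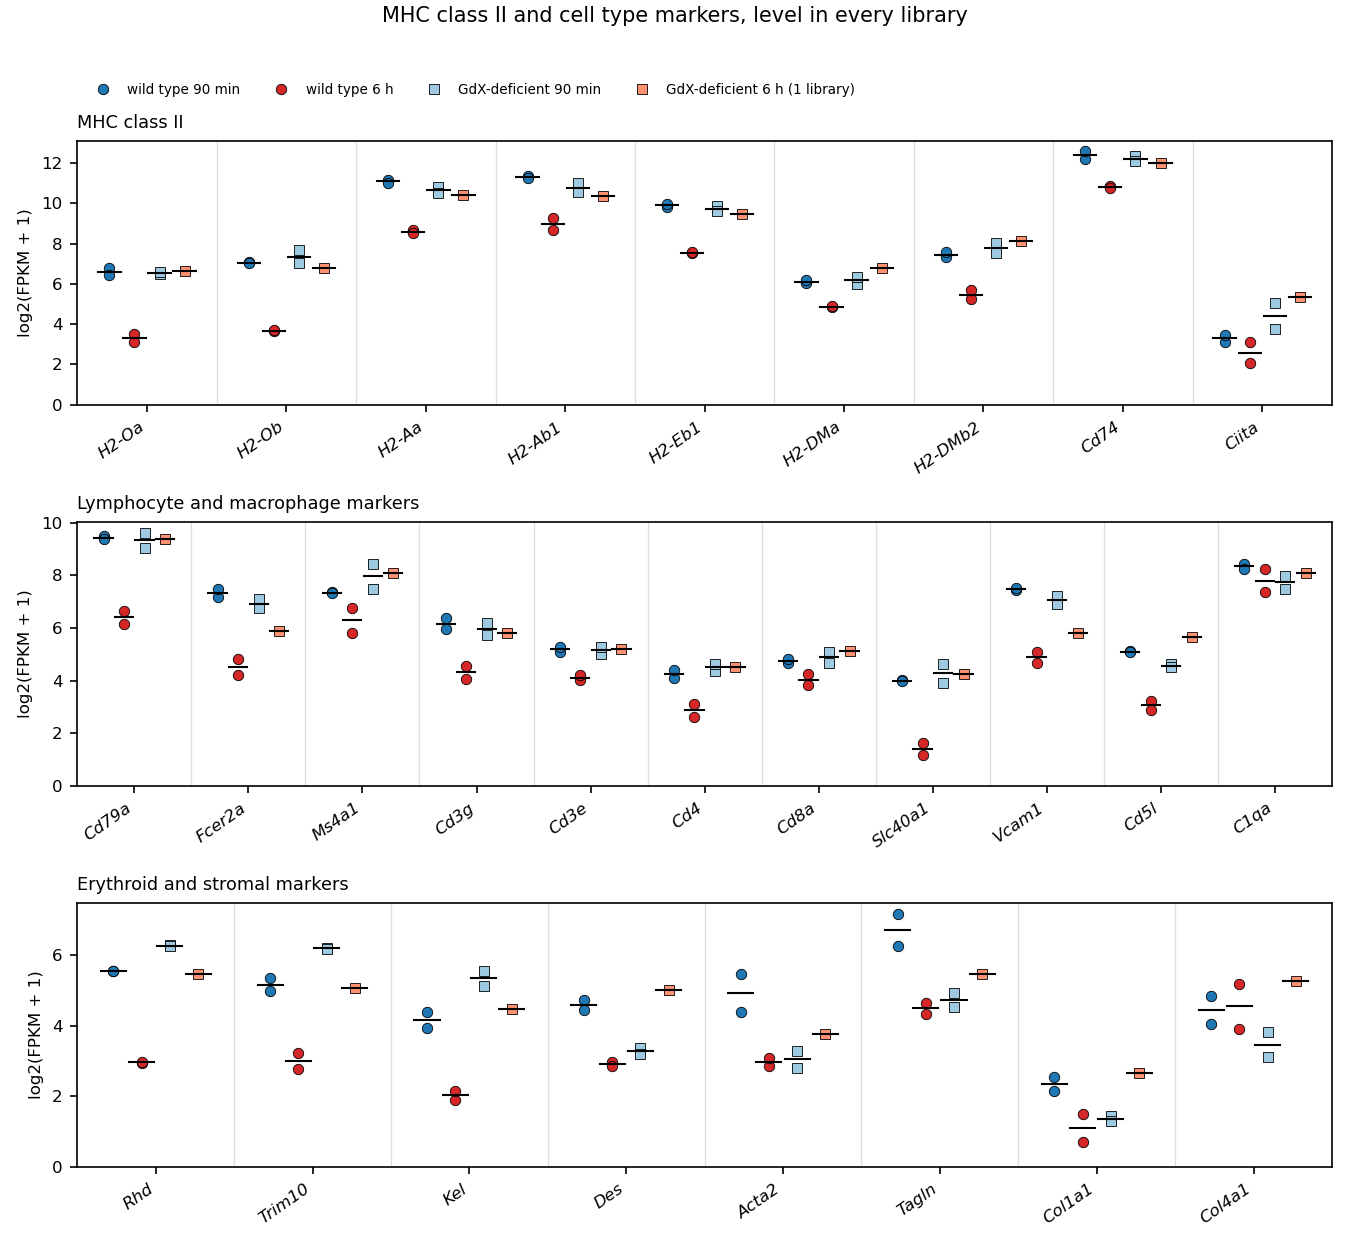
Level of MHC class II genes and of cell type markers as log2(FPKM + 1) on the y axis. Each point is 1 library, circles are wild type and squares GdX-deficient, and the short bars are group means. In wild type H2-Oa falls from 109 and 84.8 FPKM to 10.5 and 7.66 FPKM, and the late GdX-deficient library stands at 98.9 FPKM.

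Glycolysis rose in 5 of 19 genes and fell in none (median 0.47). Pkm, pyruvate kinase, stood at 193 and 193 FPKM in the early libraries and 496 and 512 FPKM in the late ones (log2 change 1.38, SE 0.24, limma adjusted p = 0.00999), and the phosphofructokinases Pfkp and Pfkl, which control the pathway, at 20.1 and 24.2 FPKM in the early libraries and 56.1 and 81.8 FPKM in the late ones (1.58) and 15.2 and 18 FPKM in the early libraries and 40.2 and 40.3 FPKM in the late ones (1.23). Tpi1 (1.1) and Pgk1 (0.94) rose too. The glucose transporter Slc2a1 was at 0.20. No glycolysis gene was called without wild-type replicate 1 at 90 min, and 2 without replicate 2. Leaving out 1 library ended single calls, with the limma adjusted p then in parentheses: without wild-type replicate 1 at 90 min (Pfkp 0.0555, Pkm 0.0559, Tpi1 0.0818, Pfkl 0.18) and without wild-type replicate 2 at 90 min (Pfkl 0.0803, Tpi1 0.226). Hif1a, which drives the pathway in hypoxia and inflammation, stood at 34.3 and 41.9 FPKM in the early libraries and 58.3 and 97.6 FPKM in the late ones and did not pass (limma adjusted p = 0.0667). Among the 12 tested genes of the HIF list outside glycolysis, which includes Hif1a, Bnip3l fell (64.4 and 62 to 19.9 and 23.8 FPKM; -1.5). Bnip3l also clears mitochondria from maturing red cells. HIF targets that rose numbered 2 without replicate 1 and 1 without replicate 2 at 6 h. Other ways of processing ended calls after rescaling without globin genes (Pfkl, Tpi1). Of the glycolytic genes, 2 rose after rescaling without globin genes.

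Oxidative phosphorylation gave 5 rises among 79 nuclear-encoded subunits and no fall (median 0.26), a share of 6.33% near the 4.39% of all tested genes that rose. Uqcrq of complex III stood at 68.2 and 49.6 FPKM in the early libraries and 268 and 119.6 FPKM in the late ones (log2 change 1.6, SE 0.38, limma adjusted p = 0.0286) and Ndufa12 of complex I at 75.2 and 65.5 FPKM in the early libraries and 207 and 144 FPKM in the late ones (log2 change 1.28, SE 0.29, limma adjusted p = 0.0244). The late replicate 1 was the higher in both. Some of these calls lapsed when 1 library was left out (limma adjusted p in parentheses), namely without wild-type replicate 1 at 90 min (Ndufa12 0.0598), without wild-type replicate 2 at 90 min (Uqcrq 0.0689, Ndufa12 0.106), without GdX-deficient replicate 1 at 90 min (Uqcrq 0.0602) and without GdX-deficient replicate 2 at 90 min (Uqcrq 0.0605). The 81 ribosomal protein genes had no call (limma; 3 at an unadjusted p under 0.05; median 0.23). Rplp1, a stalk protein of the large subunit, stood at 8512 and 4985 FPKM in the early libraries and 11966 and 4234 FPKM in the late ones. These 2 groups of short transcripts moved with single libraries. Without replicate 2 at 6 h, 16 subunits and 9 ribosomal genes rose. Without replicate 1 at 6 h, 3 subunits rose and 3 fell, and the ribosomal median was -0.18. At 90 min, 1 subunit rose without wild-type replicate 1, none without replicate 2, and 2 without either GdX-deficient library. Cholesterol synthesis (19 genes), NRF2 targets (14) and metallothioneins with zinc transporters (10) had no call by limma, and 2, 5 and 2 genes at an unadjusted p under 0.05. Mt1, an acute zinc buffer, stood at 1195 and 823 FPKM in the early libraries and 740.3 and 356 FPKM in the late ones, Srebf2 of the cholesterol pathway at 22.5 and 39.7 FPKM in the early libraries and 18 and 37.3 FPKM in the late ones and Txn1, a thiol reductant under NRF2, at 272 and 234 FPKM in the early libraries and 631 and 358 FPKM in the late ones. Without replicate 1 at 6 h, 2 genes of the zinc list rose and 1 fell, 1 cholesterol gene rose without either library at 6 h, and 1 NRF2 target rose and 2 fell without replicate 2 at 6 h. Beyond single libraries, calls depended on the setting and ended without a filter on low values (Ndufa12, Uqcrq), in the fit of only the 4 wild-type libraries (Uqcrq) and with quantile normalization (Uqcrq). Of the subunits, none passed without a filter on low values, 2 rose after rescaling without globin genes and 2 rose in the fit of only the 4 wild-type libraries.

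Of 40 cell cycle genes 3 rose, the replication helicase subunits Mcm2 (16.1 and 19.6 to 31.5 and 47 FPKM; 1.07), Mcm6 (1.03) and Mcm7 (0.91), and 3 fell, the proliferation marker Mki67 (25.4 and 24.5 FPKM in the early libraries and 5.51 and 8.55 FPKM in the late ones; log2 change -1.72, SE 0.28, limma adjusted p = 0.0081) and the mitotic cyclins Ccnb2 (-1.21) and Ccna2 (-1.01). Mki67 was called in every alternative. The limma adjusted p of single genes passed 0.05 without wild-type replicate 1 at 90 min (Ccnb2 0.163, Mcm7 0.265, Mcm2 0.284, Ccna2 0.299, Mcm6 0.301), without wild-type replicate 2 at 90 min (Mcm6 0.122, Mcm2 0.128, Ccnb2 0.194, Ccna2 0.195, Mcm7 0.243), without wild-type replicate 1 at 6 h (Mcm7 0.0724, Ccna2 0.0746, Ccnb2 0.0856), without wild-type replicate 2 at 6 h (Mcm7 0.0538, Mcm6 0.112, Mcm2 0.126), without GdX-deficient replicate 1 at 90 min (Ccnb2 0.0507, Mcm6 0.0622, Mcm2 0.0633) and without GdX-deficient replicate 2 at 90 min (Ccnb2 0.0505, Mcm6 0.0621, Mcm2 0.0632). The list had no rising gene and 1 falling gene without wild-type replicate 1, or without replicate 2, at 90 min, 1 rising and 2 falling without either GdX-deficient library at 90 min, 2 falling without replicate 1 at 6 h, and no rising gene without replicate 2 at 6 h. Of 15 p53 targets 3 rose, Phlda3, an inhibitor of AKT (1.22 and 1.0 to 6.42 and 5.34 FPKM; log2 change 1.7, SE 0.27, limma adjusted p = 0.00678), and the death effectors Bax (115 and 100.1 to 383 and 258 FPKM; 1.54) and Bbc3, PUMA (8.32 and 11.2 to 28.6 and 32.7 FPKM; 1.57). Cdkn1a, the p53-induced cell cycle inhibitor, was at -1.09 and did not pass, and Btg2 fell. Of 17 BCL2 family genes 2 rose, Bax and Bbc3, and 4 fell, the survival genes Bcl2l1 (165 and 157 to 52.4 and 43.4 FPKM; -1.74), Bcl2a1a (-1.53) and Bcl2a1b (-1.42), which NF-kB induces, and the effector Bok (-1.85). Bcl2a1a and Bcl2a1b are near-identical copies and their levels are uncertain. Without wild-type replicate 1 at 90 min the adjusted p was 0.12 for Bbc3, 0.0775 for Bcl2a1a and 0.136 for Bcl2a1b, leaving 1 rise and 2 falls in the BCL2 list, which had 4 rises without replicate 1 at 6 h. In the p53 list 3 genes fell without replicate 1 at 6 h, and 2 without replicate 2 at 6 h or either GdX-deficient library at 90 min. Changes of the other settings ended calls without a filter on low values (Bbc3, Bcl2a1a, Bcl2a1b, Bcl2l1, Ccna2, Ccnb2, Mcm2, Mcm6), after rescaling without globin genes (Bbc3, Ccna2, Ccnb2, Mcm2, Mcm6, Mcm7), in the fit of only the 4 wild-type libraries (Ccnb2, Mcm2, Mcm6), with quantile normalization (Mcm6, Mcm7) and without a trend of the prior variance (Mcm2, Mcm6, Mcm7). Of the cell cycle genes, 1 rose and 1 fell without a filter on low values and 1 fell after rescaling without globin genes. Of the BCL2 genes, 1 rose and 1 fell without a filter on low values.

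Clock genes differ with the hour at which a spleen is taken, and the labels give no hour. Of 13 such genes 3 rose: Ciart, a repressor of the clock (2.53 and 2.82 FPKM in the early libraries and 24 and 25.2 FPKM in the late ones; log2 change 2.8, SE 0.29, limma adjusted p = 0.00131), Tef (4.21 and 4.25 to 9.85 and 12.5 FPKM; 1.21) and Nr1d1, REV-ERB alpha (0.31 and 0.82 to 2.31 and 2.58 FPKM; 1.16). Ciart was called in every alternative. Per1 (0.41) and Dbp (0.74) did not pass. Without wild-type replicate 1 at 90 min Ciart was the 1 call, with Tef at an adjusted p of 0.223 and Nr1d1 at 0.217, and Tef was also lost without replicate 2 at 90 min (0.215) or at 6 h (0.0773). Of 16 genes of the glucocorticoid receptor pathway 2 rose, Il1r2 (above) and Pdk4, and 4 fell. Pdk4, which spares glucose, rose from 1.24 and 0.58 to 4.25 and 6.56 FPKM (log2 change 1.74, SE 0.31, limma adjusted p = 0.0112). Anxa1, annexin A1 (56.2 and 53.9 to 12 and 16.6 FPKM; -1.89), Cebpd (-1.67), the haemoglobin scavenger Cd163 (-1.58) and Hsd11b1, which regenerates active corticosteroid (-1.57), fell. The classic target Fkbp5 was at 0.62 and did not pass. Without wild-type replicate 1 or 2 at 90 min 1 gene of this list rose, and Hsd11b1 was lost without the former (0.112). The lists were named for regulators, and the activity of none of them was measured. Changing one setting at a time, calls were lost without a filter on low values (Cebpd, Hsd11b1, Il1r2, Nr1d1, Pdk4, Tef), after rescaling without globin genes (Il1r2, Nr1d1, Tef) and with quantile normalization (Il1r2). Of the clock genes, 1 rose without a filter on low values and 1 rose after rescaling without globin genes. Of the glucocorticoid targets, 2 fell without a filter on low values.

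The same time change was then set against that in mice labelled as lacking GdX. Ubl4a, the targeted gene, was still detected in the libraries labelled GdX-deficient, and its levels overlapped between genotypes at 90 min. It stood at 5.62 and 7.5 FPKM in the early libraries and 11.9 and 14 FPKM in the late ones in wild type and 4.03 and 5.69 FPKM early and 10.6 FPKM late in the libraries labelled GdX-deficient. Gm44504, an entry whose span overlaps Ubl4a in RefSeq and which was chosen after its values were seen, separated the genotypes: 15.4 and 14.5 FPKM in the early libraries and 51.1 and 24 FPKM in the late ones in wild type and 1.01 and 1.86 FPKM early and 0.66 FPKM late in the libraries labelled GdX-deficient. How the authors divided fragments between the 2 entries is not given in the sources used here. The difference of the time changes was tested in the same limma fit, in which the lone GdX-deficient library at 6 h is assumed to vary like the other groups. Over all tested genes the median time change was 0.05 in wild type and 0.25 in GdX-deficient spleen, and the median difference was -0.19.

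The test called 8 of 11378 genes (0.0703%), and 1136 (9.98%) had an unadjusted p under 0.05. Of the 8, 4 had the larger rise in wild type, and they belong to the amino acid program: Slc7a3, Trib3, Cth and Bcat1. Of these, Slc7a3, Cth and Bcat1 passed the filter on low values only through the late wild-type libraries, so a difference was fixed by their entry and their calls support nothing further. Trib3 stood at 0.51 and 0.72 FPKM early and 3.27 FPKM late in GdX-deficient spleen, and its time changes differed by 3.59 (SE 0.43, limma adjusted p = 0.043). Slc7a3 stood at 0.37 and 0.42 FPKM early and 0.31 FPKM late, a difference of 3.62 (SE 0.38, limma adjusted p = 0.0422). Both were high in the 2 late wild-type libraries and far lower in the GdX-deficient one. For the other 4, which fell in wild type, the GdX-deficient library at 6 h lay within or above its 90 min pair: H2-Oa (87.4 and 96.3 FPKM early and 98.9 FPKM late), Ephx1 (33.4 and 48.9 FPKM early and 45.3 FPKM late), Cd5l (23.5 and 22.1 FPKM early and 50.1 FPKM late) and the muscle filament gene Des (9.33 and 8.17 FPKM early and 31 FPKM late). Their differences ran from -3.40 to -3.15. The count rests on single libraries. It was 0 without either GdX-deficient library at 90 min, 19 and 37 without wild-type replicate 1 and 2 at 90 min, and 169 and 238 without wild-type replicate 1 and 2 at 6 h. It was also 0 with a pseudocount of 0.1, with a mean of at least 5 FPKM, and with rescaling without globin genes.

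For all 14 tested synthesis enzymes the wild-type change was above the GdX-deficient one (medians 2.64 and 0.62), with 2 called (Cth and Bcat1, with the limit given above) and 14 at an unadjusted p under 0.05. For the cytosolic tRNA synthetases it was above in 19 of 20 (medians 1.82 and 0.49), with 0 called by limma and 10 at an unadjusted p under 0.05. For all 15 class II genes it was below (medians -1.59 and 0.12; 1 called, 11 unadjusted), as for all 17 B cell markers (medians -1.12 and 0.05; 0 called, 8 unadjusted). For all 15 stromal genes it was below as well (medians -1.03 and 0.80; 1 called, 14 unadjusted). These lists were noticed after earlier results, and the members share libraries, so the counts describe them and test nothing.

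Among inflammatory genes, chemokine medians were -1.05 in wild type and -0.33 in GdX-deficient spleen, and cytokine medians -0.75 and -1.06, with no call of a difference in either list (limma) and 4 genes at an unadjusted p under 0.05 in each. Ccl4 stood at 882 and 222 FPKM early and 45.3 FPKM late in GdX-deficient spleen and Ifit1 at 515 and 419 FPKM early and 131 FPKM late, with time changes that differed by 0.02 and 0.03. Ifng stood at 18.7 and 7.86 FPKM early and 1.99 FPKM late, against a rise in wild type, and the difference of 4.03 did not pass (limma adjusted p = 0.0626). The GdX-deficient pair at 90 min was itself wide in several of these genes, such as Il12b at 38.9 and 3.76 FPKM early and 1.31 FPKM late. Antiviral genes had medians of 0.05 and -0.40, with no call and 0 at an unadjusted p under 0.05.

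**Figure D5:**
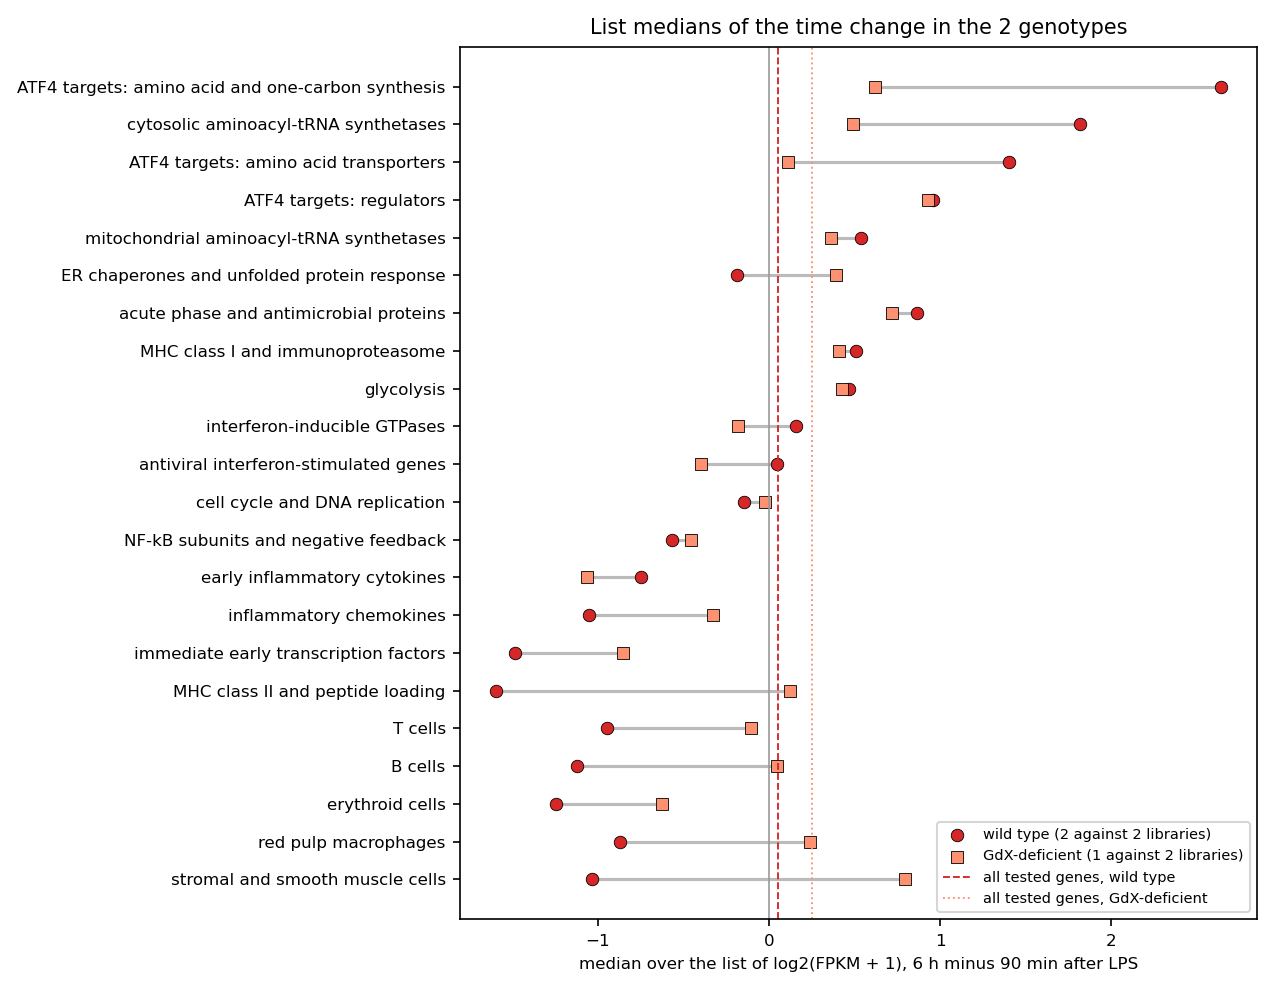
Median log2(FPKM + 1) change, 6 h minus 90 min, of 22 gene lists in wild type (circles, 2 against 2 libraries) and GdX-deficient spleen (squares, 1 against 2), with vertical lines at the medians of all tested genes, 0.05 and 0.25. The synthesis list lies at 2.64 and 0.62, and the class II list at -1.59 and 0.12.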

How the data were processed

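RNA of whole spleen was sequenced on a BGISEQ-500, per the labels' protocols, which name both oligo dT selection and rRNA depletion. The submitters' processing notes list HISAT, HISAT2 2.0.4, Bowtie2, RSEM and GRCm38.p5, without roles. The deposited values are FPKM per gene, as the authors computed them, for 17920 genes in 7 libraries. The file holds no counts, so depth was estimated from the steps between low values as the depth at which most of 160 to 227 low genes came within 0.12 of a whole fragment (58.3 to 64.9%; evenly spread values would give 24%) and no count model was run.

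Genes with a mean of at least 1 FPKM over the 7 libraries were tested (11378). Group means of log2(FPKM + 1) were fitted in limma 3.58.1 (R 4.3.3) with a trended prior variance, moderated by empirical Bayes, and p-values were adjusted by Benjamini-Hochberg over all tested genes, with a threshold of 0.05. With 2 libraries against 2, an exact permutation test of 1 gene cannot go below p = 0.333. On simulated data the fit recovered 67% of 200 genes changed by 2 on the log2 scale, with 5 false calls. It recovered 88.5% of those changed by 3, with 10 false calls, and 0% of those changed by 1. The changed genes were drawn only from the more highly expressed ones. They were far fewer than the genes called in the data, so these shares need not hold there.

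The comparison, gene lists and named genes were chosen with earlier results of these data known. Named were up to 10 genes with the smallest p in each direction, up to 4 called members of each list in each direction with the largest change (or the 2 most abundant where fewer than 2 passed), and a fixed set of well-known genes. Other list members that are named, and Gm44504, were chosen after their values were seen. Alternatives covered the pseudocount, the filter, normalization, globin genes, transcript length, the libraries in the fit and a replicate block. Immunoglobulin and T cell receptor segments and some other genes are not reported singly here. Promoters are from RefSeq.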

Additional observations from a re-analysis of the deposited data

Results flagged for a closer look

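For 8 genes the change from 90 min to 6 h passed limma's test of the difference between the wild-type libraries and those labelled GdX-deficient (adjusted p from 0.0422 to 0.0488), in which the spread of the lone GdX-deficient library at 6 h is borrowed from the other groups. The count ran from 0 to 238 over the fits without 1 library. Values are the wild-type minus the GdX-deficient change in log2(FPKM + 1). The change was more positive in wild type for Slc7a3 (3.62), Trib3 (3.59), Cth (3.00) and Bcat1 (2.73). Slc7a3, Cth and Bcat1 entered the test only through the late wild-type libraries. The difference was more negative for Ephx1 (-3.40), H2-Oa (-3.39), Des (-3.39) and Cd5l (-3.15). The GdX-deficient arm at 6 h is 1 library, so for these genes the genotype and that library cannot be told apart.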

How the results depend on the processing

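The number of genes called was within 1.5 times of 1218 in 5 alternatives that kept all libraries of the comparison and outside it in 4: 635 without a filter on low values (237 higher, 398 lower), 708 after rescaling without globin genes (191 higher), 2345 with a replicate block (1073 higher, 1272 lower) and 2402 with the length trend removed (1023 higher, 1379 lower). Leaving out 1 library gave 450 to 1774 calls, 128 to 783 higher and 322 to 1102 lower. No gene called at first changed sign, which leaving out 1 library could not have brought about. The genotype difference, called for 8 genes, was called for 0 with a pseudocount of 0.1, a mean of at least 5 FPKM or globin rescaling, 3 without a filter, 4 with quantile normalization, 2 with no variance trend, 45 with the length trend removed, 80 with a replicate block, and 0 to 238 without 1 library. The cause was not tested. Reversals touched uncalled genes. Their log2 changes ran, over the fits without 1 library, from -0.71 to 0.31 for Srebf2 (0.20 without wild-type replicate 2 at 90 min), from -0.80 to 0.10 for Mt2, from -0.11 to 0.19 for Nr1h3 (-0.037 without wild-type replicate 1 at 90 min), from -0.62 to 0.88 for Rplp1 and from -0.49 to 0.68 for Rps9 (-0.26 and -0.13 without wild-type replicate 2 at 90 min), from -0.13 to 0.96 for Per1, and from -0.098 to 0.48 for S100a8 (-0.0238 without wild-type replicate 1 at 6 h). Nr1h3 was at -0.10, -0.0741 and -0.0489 with quantile normalization, globin rescaling and the length trend removed, and Rps9 at -0.0290 and -0.0228 with the first 2. The labels do not say that a replicate number marks shared animals or batches, and the mice of the 2 times differ. The deviations of same-numbered wild-type libraries correlated (Pearson's r 0.768 across 11378 genes), but the GdX-deficient pair at 90 min did not follow the same numbers in wild type, with r of -0.12 against the 90 min pair and 0.0797 against the 6 h pair. With the block, all 1218 genes were among the 2345 called. Rars2, Hif1a, Txn1, Marco, Hdc, Jchain, Tgfb1, Lipe and Ubl4a, not called in the reported fit, were called with it. Of the lists without a call, the block gave 1 rise and 2 falls among NRF2 targets, 1 rise and 1 fall among mast cell and basophil markers, and 1 rise each among cholesterol, zinc and ribosomal protein genes. A count model (DESeq2 or edgeR) was not run because only FPKM was analysed. Depth limits the low genes, and 2 libraries a group limit every value.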
